A study of Rattus norvegicus with 10 samples.

Results

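The genes described here encode the conjugating enzymes and carboxylesterases of the rat liver: glutathione S-transferases (GST), microsomal glutathione transferases (MGST), UDP-glucuronosyltransferases (UGT), sulfotransferases (SULT) and carboxylesterases (CES). They were chosen by name from the platform annotation, keeping probe sets with exactly 1 gene symbol of these families and, per gene, the probe set with the highest mean over all arrays. This gave 51 genes out of 14217 genes with 1 symbol, namely 20 GST, 3 MGST, 9 UGT, 14 SULT and 5 CES genes. A further 5 probe sets of these families carry several symbols, among them 2 that cover the UGT1A genes, 1 shared by Gsta5 and Gsta2 and 1 shared by Ces1f and Cesl1, and these were left out.

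RNA came from liver pieces of 10 Wistar/ST rats, each hybridised to its own Affymetrix array. All animals ate a high-fat diet. The 5 mulberry rats were given mulberry leaf, dried, powdered and suspended in carboxymethylcellulose, through a gastric probe at a dose that the labels give as 500 mg/kg per day, and the dose of the 5 control rats was 0 mg/kg. The labels leave unclear on how many days it was given. The experiment ended after 7 weeks. Sex and age are not given in the sources used here, all rats shared the diet, and a group without it or at another dose is not analysed here. The comparison asks which liver genes differ between rats on this diet with and without mulberry leaf.

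Values are linear signal intensities, scaled by the authors to the same trimmed mean of 500 on every array. Median intensity per array lay between 97.5 and 118, and correlations between arrays lay between 0.957 and 0.975. Of 12 hepatocyte marker genes 11 were on the table with a symbol of their own, and all 11 stood above the filter on dim probe sets. Their summed intensity was between 313794 and 367731 in control and between 315317 and 385729 in mulberry rats (exact permutation p = 0.421, adjusted p = 1 over 12 marker lists). All 11 had a higher mean with mulberry (median difference +0.040), 0 of them with an adjusted limma p under 0.05, and 7 of 11 were higher with quantile normalization and 8 of 11 with a median shift of each array. A difference is the mulberry mean less the control mean of log2(intensity + 16), followed by ± its standard error (SE) from the limma model. Adding 16 understates the differences of dim probe sets. Brightness also depends on the probe set, so where genes are called bright or dim this sorts their probe sets and gives no order of RNA amounts. In whole liver, fewer cells of a type and less RNA per cell cannot be told apart.

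Conjugation is the stage of detoxification in which a polar group is attached to a drug, toxin, steroid or bile acid so that it can leave in bile or urine. GST enzymes attach glutathione, UGT enzymes glucuronic acid from UDP-glucuronic acid, and SULT enzymes sulfate from its activated donor PAPS (3'-phosphoadenosine 5'-phosphosulfate). Carboxylesterases split esters and amides, and some of them act on stored lipids. Hepatocytes make these enzymes in large amounts, and receptors such as PXR and CAR, the AhR and the factor NRF2 induce many of them, while growth hormone sets the sex bias of some.

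The sequences before the start sites of 4 genes whose levels varied between rats, or moved with those of another gene, come first. They are the 250 bases before the start on the coding strand, 5' to 3', from RefSeq on build GRCr8, which held such a window for 44 of the 51 genes. Capitals mark each TGACNNNGC, the core of an antioxidant response element, and each GTTAAT, a core of sites bound by the liver factor HNF1, on either strand. Gsta3 is at chr9:31154739-31154988 on the plus strand, and Gstp1 at chr1:210769706-210769955, Sult2a2 at chr1:85104533-85104782 and Sult2a6 at chr1:84097809-84098058 are on the minus strand.
Gsta3: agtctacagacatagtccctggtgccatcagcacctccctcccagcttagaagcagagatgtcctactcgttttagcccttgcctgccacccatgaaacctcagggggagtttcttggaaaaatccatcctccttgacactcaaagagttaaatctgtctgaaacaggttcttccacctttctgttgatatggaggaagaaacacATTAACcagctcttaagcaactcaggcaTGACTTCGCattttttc
Gstp1: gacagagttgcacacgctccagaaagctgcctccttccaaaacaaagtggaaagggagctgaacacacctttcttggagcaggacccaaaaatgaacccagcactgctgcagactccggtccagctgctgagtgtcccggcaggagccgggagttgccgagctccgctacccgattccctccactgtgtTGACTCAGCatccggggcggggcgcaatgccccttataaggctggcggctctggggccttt
Sult2a2: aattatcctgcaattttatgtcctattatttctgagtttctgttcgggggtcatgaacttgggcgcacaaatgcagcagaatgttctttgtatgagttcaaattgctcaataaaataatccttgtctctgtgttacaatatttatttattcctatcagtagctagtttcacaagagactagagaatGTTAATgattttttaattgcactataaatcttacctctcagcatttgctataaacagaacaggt
Sult2a6: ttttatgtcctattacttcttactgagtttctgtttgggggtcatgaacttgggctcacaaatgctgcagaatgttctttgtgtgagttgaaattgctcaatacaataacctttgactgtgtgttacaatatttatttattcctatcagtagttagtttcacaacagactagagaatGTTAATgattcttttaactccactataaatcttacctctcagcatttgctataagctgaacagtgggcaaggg

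Gsta3 had 1 of each motif, with the GTTAAT match, read on the opposite strand, starting 45 bases and the TGACNNNGC match 17 bases before the start. Gstp1 had 1 TGACNNNGC match, starting 61 bases before the start. Sult2a2 and Sult2a6 each had 1 GTTAAT match, at 64 and 73 bases before the start. The Sult2a2 and Sult2a6 windows aligned with 219 of 250 bases identical (87.6%). Over the 44 windows, TGACNNNGC was found in 5 (11.4%), in Gsta3, Gstm5, Gstm7, Gstp1 and Gstz1, against 10.2% of 27457 RefSeq windows of the same length. GTTAAT was found in 4 (9.09%) against 6.46%. AGGTCA, a core bound by nuclear receptors, was found in 2 (4.55%) against 13.7%, the AhR core GCGTG in 10 (22.7%) against 27.2%, and TTCNNNGAA, a core bound by STAT factors, in 5 (11.4%) against 7.52%, each searched on both strands. TTCNNNGAA can overlap the others. A match is a run of letters, and binding was not measured.

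No conjugating enzyme gene passed the test for a difference between mulberry and control rats. With limma, 0 of the 41 genes above the filter passed an adjusted p of 0.05, against 0% of the 18625 probe sets tested. Every one of the 41 had an adjusted p of 0.9999. At an unadjusted p under 0.05 stood 1 of the 41, Ces2c, which was lower, against 1.79% of the 10328 genes tested. For all 41 genes the control and mulberry values overlapped, where 0.32% of all genes had groups that did not. The median difference was +0.025 over the 41 genes and +0.0035 over all genes tested. Higher means with mulberry were seen for 24 of the 41 (58.5%) and for 51.3% of all genes, a split that became 19 of 41 (46.3%) after a median shift of each array, with 41.2% for all genes.

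**Figure D1:**
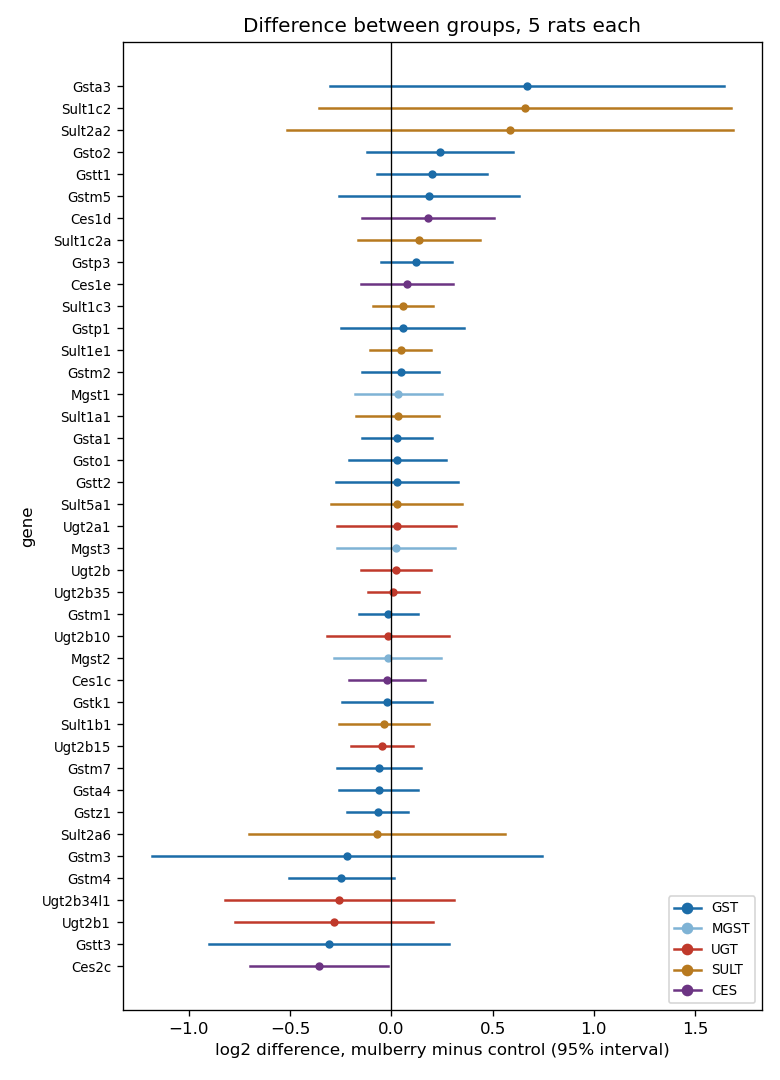
Log2 difference between mulberry and control rats (x axis, mulberry minus control, on log2(intensity + 16)) for each of the 41 genes above the filter (y axis), with the 95% interval of the limma model; colours stand for the 5 families. The interval of 1 gene, Ces2c, lies on one side of 0, and those of Gsta3, Sult1c2, Sult2a2 and Gstm3 reach beyond 1 in size.

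The intervals show what these 10 rats could resolve. For 37 of the 41 genes the 95% interval of the difference lay within -1 to 1, and for 28 within -0.5 to 0.5. The narrowest was that of Ugt2b35 (-0.12 to 0.14) and the widest that of Sult2a2 (-0.51 to 1.69). Differences under 0.1 in size were measured for 26 genes, and differences of 0.5 or more for 3, Gsta3, Sult1c2 and Sult2a2. Those 3 are also among the 4 genes with the widest range over the rats.

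GST genes were split, with 10 of 18 higher and 8 lower with mulberry and a median difference of +0.028, or +0.0004 after a median shift of each array. Gsta1, an alpha-class enzyme abundant in hepatocytes, had intensities of 23453, 21265, 24947, 24748 and 22162 in control rats 1 to 5 and of 27496, 23534, 21253, 23289 and 23589 in mulberry rats 1 to 5. The groups covered nearly the same range, with mulberry rat 1 at the top (+0.029 ± 0.080). Gstm1, the leading mu-class enzyme, lay between 20963 and 24594 in control rats (median 22246) and between 21401 and 23971 in mulberry rats (median 22137), a difference of -0.015 ± 0.068. All mulberry values of Gstm1 fell inside the control range.

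Gstm4, another mu-class gene, had the smallest p of the GST genes. It was measured at 1258, 1405, 1669, 1480 and 1307 in control rats and at 1177, 1479, 1018, 1197 and 1133 in mulberry rats. The 4 mulberry rats other than rat 2 lay under the lowest control rat. The difference was -0.25 ± 0.12, or 0.843-fold, and its unadjusted limma p was 0.0591. Gstt1, a theta-class enzyme that acts on small halogenated molecules, stood at 945, 890, 706, 1014 and 771 in control and at 1095, 851, 920, 1107 and 991 in mulberry rats. Mulberry rats 1 and 4 lay above all controls. The difference was +0.20 ± 0.12, or +0.13 without control rat 3 and +0.26 without control rat 4. Gstp3, of the pi class, was at 14262, 13090, 15038, 13127 and 13121 in control and at 17144, 13743, 14382, 14177 and 15454 in mulberry rats. All 5 mulberry rats lay above the control mean, but the ranges overlapped (+0.12 ± 0.080). The difference was +0.074 without mulberry rat 1 and +0.16 without control rat 3.

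Gsta3, an alpha-class gene of a class known to respond to NRF2, had the largest measured difference of all 41 genes and a wide spread. Its intensities were 89.1, 178, 82.3, 187 and 58.5 in control rats and 240, 400.4, 108, 55.8 and 310.1 in mulberry rats. Mulberry rats 1, 2 and 5 lay above all controls, while mulberry rat 4 had the lowest value of the 10. The probe set was dim, with a mean of 7.30 on the log2 scale against the filter cut of 6.27. Control rat 5 and mulberry rat 4 lay under the filter level of 61.1. The difference was +0.67 ± 0.45 with a 95% interval of -0.30 to 1.64, and it was +0.40 without mulberry rat 2 and +1.04 without mulberry rat 4. The promoter window of Gsta3 given above holds both an antioxidant response element core and a GTTAAT match.

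Gstt3, of the theta class, showed 1 low animal. It was at 6165, 9433, 5589, 9805 and 7058 in control rats and at 7685, 6841, 5973, 2737 and 8954 in mulberry rats. Mulberry rat 4 lay under all the others, and the difference was -0.31 ± 0.28. Gstm3, a dim mu-class gene, ran from 38.1 to 173 in control and from 15.9 to 182 in mulberry rats, with mulberry rat 4 again lowest (-0.22 ± 0.44). Other GST genes had smaller differences: Gstz1, the maleylacetoacetate isomerase of tyrosine breakdown, by -0.068 ± 0.069, Gsta4, which conjugates the lipid peroxidation product 4-hydroxynonenal, by -0.063 ± 0.090, and Gsto1, which reduces dehydroascorbate, by +0.029 ± 0.11. Gstk1, found in mitochondria and peroxisomes, differed by -0.022 ± 0.10. Gsto2 (+0.24 ± 0.17), Gstm5 (+0.19 ± 0.21), Gstm7 (-0.061 ± 0.096), Gstm2 (+0.045 ± 0.087) and Gstt2 (+0.028 ± 0.14) completed the group, and the dimmer second probe set of Gstt2 gave +0.14 ± 0.30.

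Gstp1, the pi-class enzyme known in rat liver as a marker of preneoplastic foci, differed by +0.055 ± 0.14 and moved with Nqo1 over the rats. Nqo1 is a quinone reductase and a classic NRF2 target. Gstp1 was at 995, 1040, 1501, 1168 and 906 in control and at 1210, 1027, 999, 1235 and 1301 in mulberry rats. Nqo1 was at 1386, 1934, 2314, 2243 and 725 in control and at 2910, 2005, 607 and, in rats 4 and 5, 2589 and 2427 in mulberry rats. The rats low for Nqo1, control rat 5 and mulberry rat 3, were also among the 3 lowest for Gstp1. Over the 10 rats Pearson's r was 0.72 (permutation p = 0.0164, adjusted p = 0.131 over the 8 relations computed) and Spearman's rho 0.83 (permutation p = 0.00465, adjusted p = 0.0372). Without those 2 rats, the farthest from the median of Nqo1, r was 0.66, and with group means removed it was 0.71. Groups of 5 are too small for a value within each. Nqo1 gave r = 0.42 with Gsta3 (rho 0.20, permutation p = 0.232 and 0.587, adjusted p = 0.464 and 0.837) and r = 0.47 with Gstm1 (rho 0.53, permutation p = 0.167 and 0.124, adjusted p = 0.445 and 0.331), and these fell to 0.14 and -0.054 without the same 2 rats. With Gstm3, a pair added after values were seen, it gave r = -0.12 (rho -0.18, permutation p = 0.742 and 0.632, adjusted p = 0.848 and 0.837), also -0.12 without those rats. The Gstp1 window shown above has a TGACNNNGC match, and the Nqo1 window of the same length has 0. Bases farther upstream than these windows were not searched for either gene, so the 0 does not show that Nqo1 lacks the element.

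**Figure D2:**
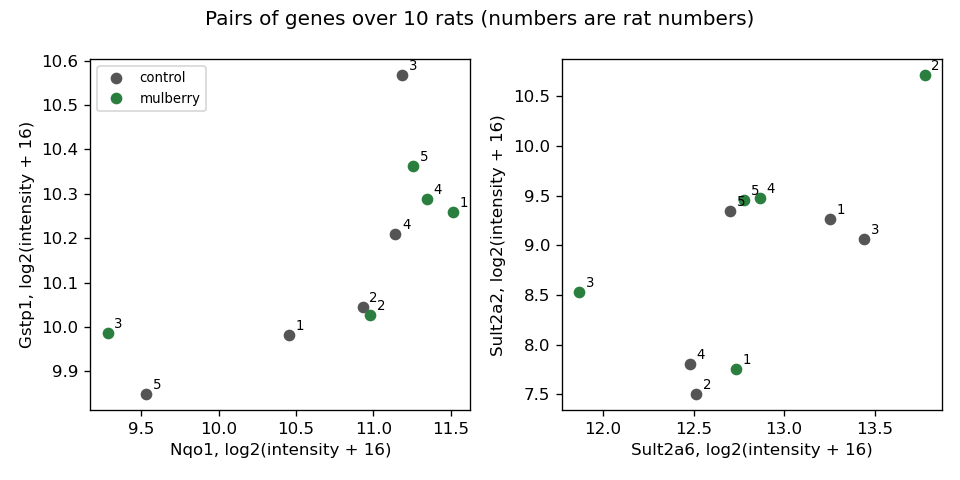
Log2(intensity + 16) of Gstp1 against Nqo1 (left) and of Sult2a2 against Sult2a6 (right), with 1 point per rat, grey for control and green for mulberry rats, and the rat number beside each point. Gstp1 rises with Nqo1 over the 10 rats (r = 0.72), and mulberry rat 2 is highest for both Sult2a genes.

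The membrane-bound MGST genes, which conjugate lipophilic substrates and reduce lipid hydroperoxides, had differences close to 0. Mgst1, the form abundant in liver endoplasmic reticulum, was at 28207, 27669, 35223, 29970 and 28079 in control and at 34682, 26693, 27334, 35243 and 29264 in mulberry rats. Control rat 3 and mulberry rats 1 and 4 lay between 34682 and 35243, and the rest between 26693 and 29970. The differences were +0.035 ± 0.099 for Mgst1, which was -0.0085 with quantile normalization, -0.018 ± 0.12 for Mgst2 and +0.024 ± 0.14 for Mgst3. Mgst3 varied more among control rats (8208 to 13770) than among mulberry rats (9002 to 11861).

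UGT genes had a median difference of -0.017, with 3 of 7 higher and 4 lower. After a median shift of each array 7 of 7 were lower (median -0.045). Under that shift the median over all 10328 genes was also below 0, at -0.024, with 6071 of them lower. With quantile normalization 2 of the 7 UGT genes were higher and 5 lower (median -0.018). All 7 belong to the UGT2 family, which glucuronidates steroids, bile acids and drugs. Ugt2b1, a form inducible by phenobarbital, had the smallest p among them. It was at 10818, 9285, 11723, 4945 and 9908 in control and at 8559, 5614, 7255, 10413 and 5928 in mulberry rats. Without control rat 4, which held the lowest value of all 10, the difference went from -0.28 ± 0.23 to -0.50, and it was -0.19 without mulberry rat 2 or control rat 3. With all rats kept, mulberry values lay entirely inside the control range.

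Ugt2b34l1 was at 413, 328, 326, 210.2 and 177 in control and at 391, 287, 177, 171 and 187 in mulberry rats. High and low animals occurred in both groups, and the difference was -0.26 ± 0.26, from -0.12 without control rat 1 to -0.44 without mulberry rat 1. Ugt2b35 was the least variable of the 41 genes. It ran from 20468 to 21689 in control and from 20500 to 21936 in mulberry rats, a ratio of highest to lowest of 1.07 over the 10 rats (+0.0094 ± 0.059, or -0.018 with quantile normalization or a median shift). Ugt2b15 ran from 15765 to 17576 and from 14920 to 17384 (-0.047 ± 0.071), from -0.076 without mulberry rat 3 to -0.021 without mulberry rat 5. Ugt2b gave +0.023 ± 0.080 on its brighter probe set, a sign that turned with quantile normalization (-0.0086) and a median shift (-0.0050), and -0.10 ± 0.10 on the other. Ugt2b10 (-0.017 ± 0.14), in which mulberry rat 2 was highest at 10736, and Ugt2a1 (+0.025 ± 0.14) completed the family.

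SULT genes had 7 of 9 higher means with mulberry and a median difference of +0.046, and 6 of 9 and +0.018 after a median shift. Sult1e1, the estrogen sulfotransferase, was at 29520, 29498, 30122, 31037 and 29711 in control and at 35980, 29396, 30285, 29845 and 29622 in mulberry rats. Apart from mulberry rat 1 these values lay between 29396 and 31037. The difference was +0.045 ± 0.069, or -0.0090 without that rat. Sult1a1, the phenol sulfotransferase, ran from 21058 to 26068 in control and from 20677 to 27674 in mulberry rats (+0.030 ± 0.094). Sult1c3 ran from 19549 to 22572 and from 20114 to 23709 (+0.058 ± 0.068), from +0.028 without control rat 5 to +0.092 without mulberry rat 2. Sult1b1, which sulfates thyroid hormones, differed by -0.036 ± 0.10.

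Sult1c2 had the widest range of all 41 genes, with a highest to lowest ratio of 9.49 on the intensity + 16 scale. It was at 2147, 3960, 1287, 445 and 2765 in control and at 2611, 2783, 4355, 2804 and 1555 in mulberry rats. Control rat 4 was lowest and mulberry rat 3 highest. The difference of +0.66 ± 0.47 went to +0.19 without control rat 4 and to +0.97 without control rat 2. Its relative Sult1c2a, at 10606, 11532, 7373, 7170 and 8871 in control and at 12118, 9263, 9024, 9906 and 9130 in mulberry rats, was lowest in the same control rats 3 and 4. Of the 5 mulberry rats, 1 lay above every control (+0.13 ± 0.14), and the difference ran from +0.055 without control rat 4 to +0.23 without control rat 2. The 250-base windows of these genes aligned with 133 identical bases (53.2%).

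The hydroxysteroid sulfotransferases, which sulfate bile acids and steroids such as DHEA, varied strongly between rats of both groups. Sult2a2 was at 601, 165, 521, 208 and 636 in control and at 199.7, 1663, 354, 696 and 687 in mulberry rats. Sult2a6 was at 9742, 5834, 11123, 5701 and 6644 in control and at 6809, 14025, 3722, 7445 and 7018 in mulberry rats. Mulberry rat 2 was highest for both genes, and control rats 2 and 4 were among the 4 lowest for both. The differences were +0.59 ± 0.51 for Sult2a2, or +0.20 without mulberry rat 2 and +0.95 without mulberry rat 1, and -0.073 ± 0.29 for Sult2a6. Over the 10 rats the genes gave r = 0.66 (permutation p = 0.0378, adjusted p = 0.151) and rho = 0.64 (permutation p = 0.0547, adjusted p = 0.219), and r = 0.56 without mulberry rats 2 and 3. This pair was chosen after its values were seen. Close paralogs may share probe sequence, and cross-hybridisation between them was not tested.

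The female-predominant Cyp2c12, a growth hormone dependent gene, was also set against the Sult2a genes, in pairs added later. Cyp2c12 was at 893, 1023, 387, 1238 and 602 in control and at 1036, 2637, 1934, 1751 and 862 in mulberry rats (+0.97 ± 0.34). The difference ran from +0.73 without control rat 3 to +1.17 without mulberry rat 5. Cyp2c12 had an unadjusted limma p of 0.0134 and an adjusted p of 0.9999. It gave r = 0.20 with Sult2a2 (rho 0.13, permutation p = 0.572 and 0.732, adjusted p = 0.848 and 0.837) and r = -0.12 with Sult2a6 (rho -0.14, permutation p = 0.74 and 0.709, adjusted p = 0.848 and 0.837), with -0.17 and -0.52 without control rat 3 and mulberry rat 2. With Sult1e1 it gave r = -0.032 (rho 0.018, permutation p = 0.908 and 0.974, adjusted p = 0.908 and 0.974), or 0.057 without those rats. Sult5a1 differed by +0.026 ± 0.15.

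Carboxylesterases held the gene with the smallest p of the whole set, and as a family were split at 2 higher and 2 lower. Ces2c, of the class that prefers esters with a large alcohol group, was at 732, 773, 1028, 967 and 988 in control and at 755, 523, 791, 581 and 866 in mulberry rats. Every mulberry rat lay under the control mean, and mulberry rats 2 and 4 lay under the lowest control. Mean intensity was 897 ± 135 (SD, n = 5) for control and 703 ± 145 (SD, n = 5) for mulberry rats. The difference was -0.36 ± 0.16, or 0.781-fold, with a 95% interval of -0.70 to -0.017. Its unadjusted limma p of 0.0411 became 0.9999 when adjusted over all probe sets. With each rat left out, the unadjusted limma p ran from 0.0185 (mulberry rat 5) to 0.113 (mulberry rat 2). It was also over 0.05 without mulberry rat 4 or control rat 3, 4 or 5. With array weights it was 0.0947, and without the variance trend 0.0505.

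Ces1d, known in rodents as triacylglycerol hydrolase, a lipase of stored liver fat, was at 8683, 11245, 15035, 16003 and 12675 in control and at 15852, 11989, 13417, 15910 and 13822 in mulberry rats. Control rats 1 and 2 were the lowest of the 10. The difference was +0.18 ± 0.15, or +0.053 without control rat 1 and +0.27 without control rat 4. Ces1e ran from 2908 to 3613 in control and from 3008 to 4152 in mulberry rats (+0.078 ± 0.11), from +0.018 without mulberry rat 1 to +0.13 without mulberry rat 4. Ces1c, the serum esterase of rodents, was at 21435, 20206, 25576, 21349 and 21021 in control and at 23882, 18838, 20656, 23462 and 21189 in mulberry rats. Control rat 3 was highest, and the difference was -0.021 ± 0.087.

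**Figure D3:**
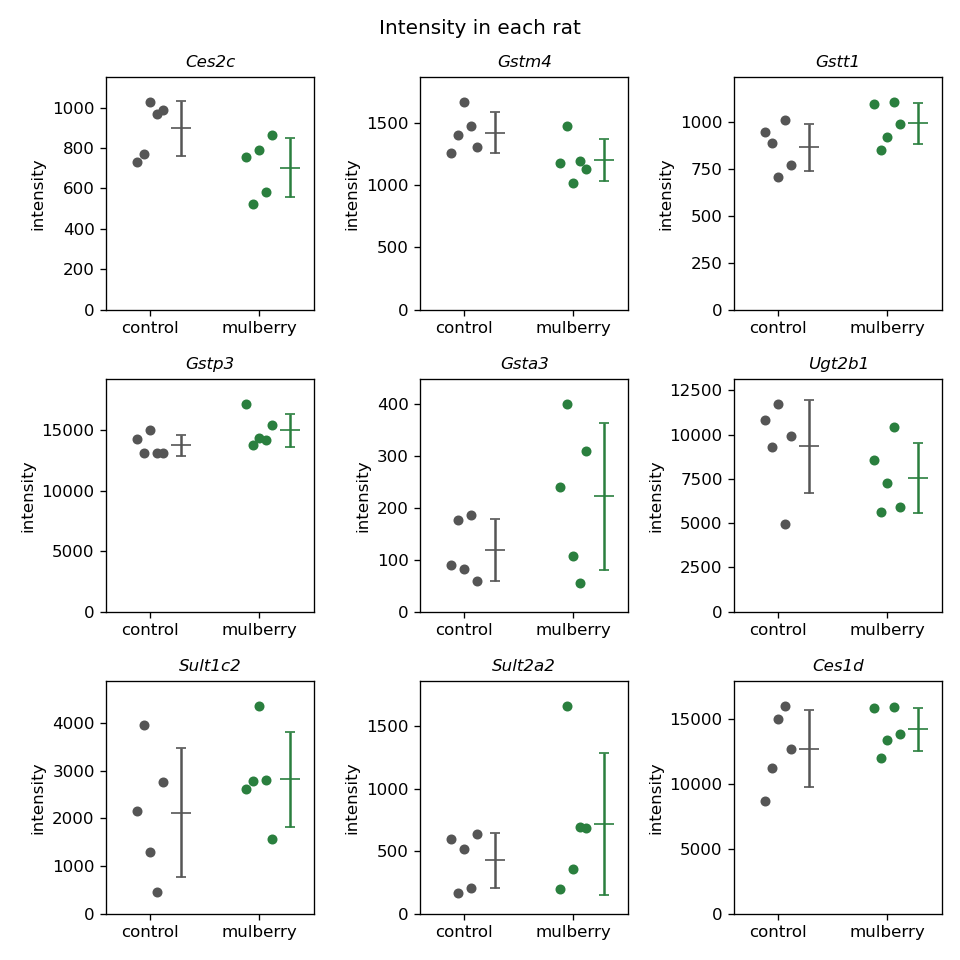
Linear intensity (y axis, from 0) in each of the 5 control (grey) and 5 mulberry (green) rats for 9 genes, with rats 1 to 5 from left to right in each group; the bar beside each group is the mean with the SD. The groups overlap for each gene, and Gsta3, Sult1c2 and Sult2a2 have the widest spreads for their level.

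The 10 genes at or under the filter level of 61.1 were not tested for a difference. They were Gsta3l1, Gstm6l, Ugt2b7, Ugt8, Sult1d1, Sult2a1, Sult2b1, Sult4a1, Sult6b2 and Ces5a, and their highest single value was 123, for Sult2b1. Ugt8, which makes galactosylceramide of myelin, lay between 3.40 and 32.0. Sult2a1, whose 250-base window has 245 bases (98%) identical to that of Sult2a6, lay between 9.02 and 48.3 on its own probe set. With no filter, differences of these 10 ran from -0.50 ± 0.28 (Gsta3l1) to +0.29 ± 0.23 (Sult1d1), each with an adjusted limma p of 0.9999.

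Genes that supply the conjugating enzymes or control them were likewise not called. In 7 lists, drawn up from textbook knowledge, 0 of 101 list entries tested passed an adjusted p of 0.05 with limma, and 3 (2.97%) stood at an unadjusted p under 0.05, against 1.79% of the 10328 genes tested. Those 3 were Acsm2, Papss2 and Ggct, with unadjusted limma p of 0.0155, 0.0215 and 0.0238. Except where said, the genes named from each list are the 2 with its smallest unadjusted limma p. They were picked by p and do not stand for their lists. For sulfate and PAPS supply, 5 of 10 genes were higher and 5 lower (median +0.0082). Papss2, which makes PAPS, was at 7016, 8229, 6331, 7508 and 7690 in control and at 9748, 7159, 9030, 10014 and 8696 in mulberry rats. The 4 mulberry rats other than rat 2 lay above all controls (+0.28 ± 0.11). The sulfate transporter Slc26a1 was at +0.13 ± 0.10, or +0.077 without control rat 4 and +0.19 without mulberry rat 4.

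For glutathione synthesis and recycling, 8 of 18 genes were higher and 10 lower (median -0.026). Ggct, the gamma-glutamylcyclotransferase of glutathione breakdown, was at 2382, 1688, 1913, 1898 and 2487 in control and at 1525, 1822, 1544, 1834 and 1536 in mulberry rats. Mulberry rats 1, 3 and 5 lay under all controls (-0.31 ± 0.12), and glutaredoxin, Glrx, was at -0.30 ± 0.17. UDP-glucuronic acid supply had 5 of 8 higher (median +0.022). Ugp2, which makes UDP-glucose, was at +0.14 ± 0.089 (+0.087 without mulberry rat 5, +0.17 without mulberry rat 1). The list also counts the glycogen synthase gene Gys2, which uses UDP-glucose and supplies no UDP-glucuronic acid, at +0.12 ± 0.21. Enzymes that remove conjugates had 4 of 11 higher (median -0.053), with Gusb, the lysosomal glucuronidase, at +0.20 ± 0.098. Acy3, which deacetylates mercapturic acids, was at -0.24 ± 0.12, or -0.15 without mulberry rat 4 and -0.31 without mulberry rat 3. The lowest difference of that list, picked out after its values were seen, was that of Ephx2, a soluble epoxide hydrolase, which opens epoxides and removes no conjugate. Ephx2 was at 6427, 6510, 8611, 5061 and 2903 in control and at 4386, 3621, 6873, 5050 and 347 in mulberry rats. Mulberry rat 5 lay under all the others. The difference of -0.95 ± 0.64 was -0.20 without that rat and -1.26 without mulberry rat 3.

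Receptors and factors that control these enzymes had 9 of 21 higher (median -0.035). Stat5b, which carries the growth hormone signal, was at 242, 306, 326, 295 and 234 in control and at 259, 230.1, 240, 195 and 208 in mulberry rats. Every mulberry rat lay under the control mean (-0.29 ± 0.13). The factor Cebpb was at -0.32 ± 0.17, or -0.18 without mulberry rat 1 and -0.41 without control rat 2. The lowest difference of that list, also picked out after its values were seen, was that of Ppara, the receptor for fatty acids and fibrates. Ppara was at 143, 197, 151, 198 and 232 in control and at 183, 25.8, 159, 169 and 130.0 in mulberry rats. Mulberry rat 2 lay under all the others. The difference of -0.59 ± 0.36 was -0.17 without that rat and -0.74 without mulberry rat 1. Other targets of NRF2, AhR, CAR and PXR had 8 of 18 higher (median -0.016), with Tiparp, an AhR target, at +0.17 ± 0.10. Alas1, the first enzyme of heme synthesis, was at -0.49 ± 0.23 (-0.32 without mulberry rat 3, -0.61 without control rat 3). Other phase II enzymes had 5 of 15 higher (median -0.022), with the acyl-CoA synthetase gene Acsm2 at +0.55 ± 0.20 and the acetyltransferase gene Nat2 at -0.25 ± 0.19, or -0.17 without mulberry rat 2 and -0.39 without mulberry rat 4.

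The conjugating enzyme genes differed widely in how much they varied between animals. The SD over the 10 rats ran from 0.038 (Ugt2b35) to 0.99 (Sult2a2) on the log2 scale. Its median was 0.20 over the 41 genes and 0.23 over all genes tested. For 19 of the 41 the highest rat was less than 1.5-fold above the lowest, and for 6 it was more than 3-fold above: Sult1c2, Sult2a2, Gstm3, Gsta3, Sult2a6 and Gstt3. Spread followed level. The median SD over the 10 rats was 0.117 on the log2 scale for the 16 genes with a mean over 10000, 0.218 for the 15 between 1000 and 10000, and 0.327 for the 10 dimmest, against 0.134, 0.187 and 0.262 for all genes at those levels. Sult1c2, Sult2a6 and Gstt3 lie in the middle class, so a low level did not go with the spread there. Whether the brightest probe sets were near saturation was not tested.

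**Figure D4:**
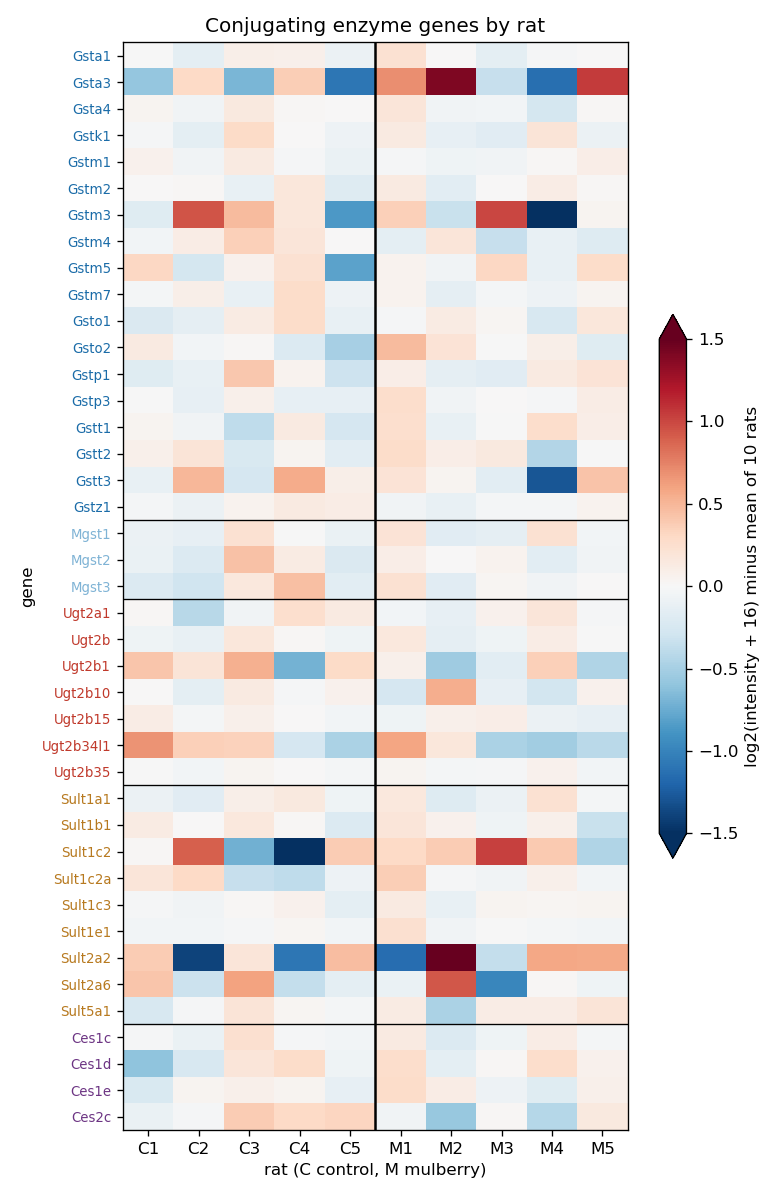
Deviation of each of the 41 genes (rows, coloured and divided by family) from its mean over the 10 rats, on log2(intensity + 16), in control rats C1 to C5 and mulberry rats M1 to M5 (columns); colours stop at 1.5 in either direction. Most rows are pale, and the widest spreads are those of Gsta3, Gstm3, Gstt3, Sult1c2, Sult2a2 and Sult2a6. Gsta3, Gstm3, Sult1c2 and Sult2a2 have dark cells in both groups. The darkest cell of Gstt3 is mulberry rat 4, and the darkest of Sult2a6 are mulberry rats 2 and 3.

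Single animals stood out over many of the genes. Mulberry rat 1 held the highest value for 10 of the 41 genes (24.4%, against 8.68% of all genes) control rat 3 for 9 (22.0%, against 17.1%) and control rat 4 for 8 (19.5%, against 8.7%). Control rats 2 and 5 held the highest value for 0 of the 41, against 9.05% and 6.84% of all genes. Mulberry rat 2 held the lowest value for 9 (22.0%, against 8.99%) and mulberry rat 4 for 8 (19.5%, against 17.0%). Control rat 5 was lowest for 7 (17.1%, against 8.15%) and mulberry rat 1 for 0 (against 9.03%). Among the 16 brightest conjugating enzyme genes the median deviation was +0.16 in mulberry rat 1, +0.089 in control rat 3 and -0.11 in mulberry rat 2. For the other 372 genes with a mean over 10000 it was +0.10, +0.15 and -0.053 in the same rats. In every rat, not only these 3, the other genes of like brightness had a median deviation of the same sign. In mulberry rat 5 both were near 0 (-0.0003 and -0.014). The pattern by rat was thus shared with other bright genes.

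Markers of other liver cells were looked at for the same arrays. Of 12 marker lists, the neutrophil list had the smallest p for its summed intensity, with 277 to 395 in control and 156 to 286 in mulberry rats (exact permutation p = 0.0159, adjusted p = 0.191 over the 12 lists). The sum took in all 4 neutrophil markers with a symbol: S100a8, S100a9, Csf3r and Cxcr2. Csf3r and Cxcr2 stood under the filter, and their part in the sum was not separated. The summed bile duct markers ran from 583 to 769 in control and from 497 to 834 in mulberry rats, with Krt7, Cftr, Spp1 and Cldn4 under the filter. Of the pancreatic markers 7 of 9 stood under the filter. The part of these cells in the values above was not tested.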

How the data were processed

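The authors deposited linear signal intensities of 31099 probe sets, 1 array per rat; the submitters' processing notes name MAS5 and affy without versions or roles. The mean after trimming 2% at each end was 500 on every array, so the intensities were used as scaled. Detection calls were not used. The number of arrays limits the precision. From these values log2(intensity + 16) was computed. The 57 control probe sets, and those not above the 40th percentile by mean (6.27 on the log2 scale), were left out, leaving 18625 probe sets and 10328 genes. Groups were compared with limma 3.58.1 in R 4.3.3 (lmFit and eBayes with a variance trend, two-sided), and p-values were adjusted over every tested probe set by Benjamini-Hochberg; the script was tested on simulated data. Correlations used 100000 permutations and marker sums an exact permutation test, both two-sided (scipy 1.17.1). Symbols came from the platform annotation, and 50 of 51 were matched to RefSeq by identifier. Named in each of GST with MGST, UGT, SULT and CES were the 4 genes with the smallest p and the 3 brightest. Any gene whose groups did not overlap was to be named too (there were 0). From each pathway list the 2 tested genes with the smallest unadjusted limma p were named. Gsta3, Ces2c and correlation partners were added, and the remaining genes above the filter are given by their difference. Genes and lists were chosen with earlier results of these data known. Of 9 planned correlations 4 could be computed, since Ugt1a6, Gsta2 and Cyp2b1 had no tested probe set of their own and Sult2a1 was under the filter; 4 more were added later.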

Additional observations from a re-analysis of the deposited data

Results flagged for a closer look

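In 76 groups of 5 rats (38 genes), 4 held 1 animal whose gap to the nearest other rat was large against the range of the group; chance flags about 1 in 20 groups. Sult1e1 was highest in mulberry rat 1 at 35980, with the other mulberry rats at 30285 or under. Ces1c was highest in control rat 3 at 25576, with the next control at 21435. Ugt2b1 was lowest in control rat 4 at 4945, with the next control at 9285. Nqo1, the partner gene of Gstp1, was lowest in mulberry rat 3 at 607, with the next mulberry rat at 2005.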

How the results depend on the processing

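With limma, 0 conjugating enzyme genes and 0 probe sets passed under every alternative: each rat left out, the replicate number as a block, arrays weighted, eBayes without the trend, medians aligned, quantiles normalized, a stricter filter (60th percentile) or none, and a pseudocount of 64 or 1. The median over the genes stayed within the spread between rats, from -0.012 to 0.054 with each rat left out, and 0.025 with the replicate block. No pairing of the rats by replicate number was seen. Same-numbered deviations correlated at -0.33 to 0.096, with 0 of 5 pairs over 0.1. Of 5 control rats, 1 was most like its own number. With 5 pairs this check cannot exclude a factor shared by same-numbered rats. Signs turned for Mgst1 (-0.0085), Ugt2b (-0.0086) and Ugt2b35 (-0.018) with quantile normalization, for Ugt2b (-0.0050) and Ugt2b35 (-0.018) with a median shift, for Ces1c (0.0026) and Gstm1 (0.011) with array weights, and for Ugt2b (-0.041) averaged over its probe sets. With each rat left out, signs turned for 8 of 22 named conjugating enzyme genes and 2 of 16 others: Ces1c ranged from -0.059 to 0.036, Gsta1 from -0.023 to 0.069, Gstm1 from -0.042 to 0.015, Mgst1 from -0.018 to 0.096, Sult1a1 from -0.023 to 0.082, Sult1e1 from -0.0090 to 0.064, Ugt2b from -0.013 to 0.068, Ugt2b35 from -0.0051 to 0.022, Gys2 from -0.030 to 0.25 and Nqo1 from -0.052 to 0.63. The cause was not tested.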
